A study of Mus musculus with 24 samples.

Results

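The comparison described here was between 2 groups of m6A IP libraries from irradiated tumours, the group labelled WT IR m6A IP (3 libraries) and the group labelled Ythdf2 cKO IR m6A IP (3 libraries), out of 24 libraries in 8 groups. Of the 54446 gene identifiers counted in each library, 15276 had at least 10 counts in at least 3 of the 6 libraries and were compared. The cells were CD11b+ myeloid cells sorted from subcutaneous MC38 tumours, a colon carcinoma line of mouse origin, in C57BL/6J hosts aged 8 to 10 weeks. Mice labelled WT carried floxed Ythdf2 (Ythdf2 fl/fl) without Cre, and mice labelled Ythdf2 cKO carried the same floxed alleles with Lyz-Cre, in which Cre is expressed from the Lyz2 gene and acts in cells that use that gene. Both groups had received a single tumour dose of 20 Gy and were collected 3 days later. The 6 m6A IP libraries from unirradiated tumours (Ctrl) and the 6 irradiated Input libraries, made from RNA that had not been immunoprecipitated, served to show where the irradiated IP comparison differed from the others. Cells of several mice were pooled for each replicate, and the methods speak of technical replicates for the sorted cells but of biological ones for the merged peaks. The p-values below therefore measure the spread between these libraries, which may be technical. Below, the groups are named by their labels as WT IR and cKO IR.

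N6-methyladenosine (m6A) is a methyl mark that the METTL3 and METTL14 enzymes place on adenosines of messenger RNA, mostly within the DRACH motif and often near stop codons and in 3′ untranslated regions (UTRs). YTHDF2 is a cytoplasmic reader protein that binds m6A and recruits the deadenylation machinery, so that marked transcripts are degraded. In MeRIP-seq, fragments of polyadenylated RNA are pulled down with an antibody against m6A, and an IP count depends both on how much of a transcript was present and on how well its fragments were captured. These contributions cannot be told apart from IP counts alone.

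The 6 irradiated IP libraries held between 68.8 and 86.4 M gene counts (M, counts in units of 1e6; median 75.8 M), within the range of 65.2 to 86.4 M of all 24, and counting error weighed more in genes of a few CPM than in abundant ones. Mitochondrial transcripts made up 0.924, 0.927 and 1.10% of counts in the 3 WT IR libraries and 0.450, 0.471 and 0.457% in the 3 cKO IR libraries. Neither batches nor dates are given in the labels, and values within batches could therefore not be had.

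The labels were checked first with Lyz2 and Wdfy1. Lyz2 encodes lysozyme of macrophages and granulocytes and is the gene into which the Cre was placed, and Wdfy1 encodes an endosomal adaptor protein whose expression is known to differ between substrains of C57BL/6. Levels are given as CPM, the count of a gene per 1e6 gene counts of the library, whereas log2 differences come from the edgeR fit, which also applied TMM scaling. Lyz2 (chr10:117277331-117282321, minus strand, GRCm38) stood at 98.3, 95.3 and 96.6 CPM in the libraries labelled WT IR and at 20642, 20924 and 20911 CPM in those labelled cKO IR, a 215-fold difference between mean CPM (fitted log2 difference 7.78, SE 0.02, edgeR adjusted p = 8.7e-63). In the other 3 library sets the order by label was the reverse. Mean levels were 17312 CPM (WT) and 98.1 CPM (cKO) in the unirradiated IP, 20275 and 416 CPM in the irradiated Input, and 20563 and 302 CPM in the unirradiated Input. The level of the libraries labelled WT IR was thus near that of the cKO group in the unirradiated IP, and the level of those labelled cKO IR near that of the WT groups.

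Wdfy1 (chr1:79702262-79776143, minus strand) showed the same reversal at lower levels. It stood at 3.69, 4.10 and 3.69 CPM in the libraries labelled WT IR and at 16.7, 16.4 and 15.5 CPM in those labelled cKO IR (log2 2.12, SE 0.09, adjusted p = 2.3e-21). Its means by label, WT first, were 13.9 and 3.81 CPM in the unirradiated IP, 27.2 and 4.82 CPM in the irradiated Input, and 26.0 and 5.69 CPM in the unirradiated Input. Both genes therefore went against the labels of the irradiated IP groups, and in both the 2 groups did not overlap, as in 52.6% of the 15276 genes. These 6 are the only irradiated IP libraries, so no value below could be computed without them, and each direction below is that of the deposited labels.

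**Figure D1:**
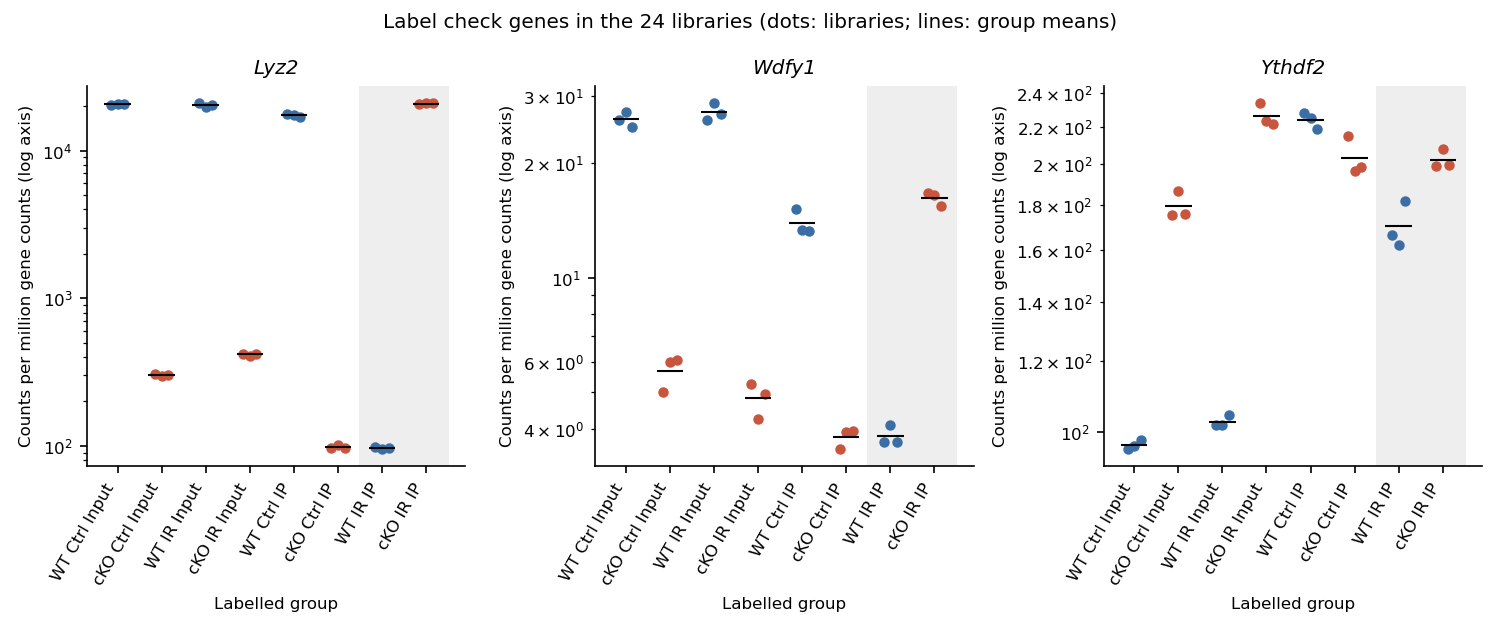
Levels of Lyz2, Wdfy1 and Ythdf2 in each of the 24 libraries (CPM, log axis), by labelled group. Dots are libraries, lines are group means, and the grey band marks the irradiated IP groups, where Lyz2 and Wdfy1 were higher under the cKO label, the opposite of the other 3 pairs of groups.

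Ythdf2 itself (chr4:132184912-132212303, minus strand) was counted over all its exons, so a loss of part of the gene need not lower its count, and the exons between the loxP sites were not given in the sources used here. Its irradiated IP levels were 166, 162 and 182 CPM under the WT label and 199, 208 and 199 CPM under the cKO label (log2 0.28, SE 0.03, adjusted p = 1.5e-09). In the unirradiated IP the means were 224 CPM (WT) and 203 CPM (cKO), and in the irradiated Input 103 and 226 CPM. The peaks, which the authors called with MACS2 per library as a fold enrichment over a control, divided the gene more sharply. In the 3 libraries labelled cKO IR, 1 peak each covered 99.5, 99.6 and 99.9% of the longest coding exon (chr4:132204132-132205715), with a fold of 9.66, 15.1 and 12.2. In the 3 libraries labelled WT IR no peak touched this exon, and 4 peaks each lay elsewhere in the gene. A peak over the 5′ UTR (chr4:132211939-132212133), with a fold of 16.5, 13.5 and 14.2, was present in the libraries labelled WT IR and in no library of either unirradiated IP group. The exon was 65.7 to 83.8% covered in the unirradiated WT libraries and 42.8 to 54.2% covered in the unirradiated cKO libraries. Both peaks over the 3′ UTR under the WT IR label were also found in all 3 unirradiated WT libraries. No library labelled cKO, irradiated or not, had them, so these peaks had the same order by label in both IP sets.

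The sequences that follow are m6A motif matches within 50 bases of the summits of 5 peaks in these 3 genes. Among the irradiated IP libraries, each peak was found under one label only. The sequences were read from GRCm38 on the strand of the gene, with 8 bases to each side. The capitals mark the 5 bases of the DRACH match, in which the adenosine before the C is the one that can be methylated.
Ythdf2 5′ UTR, peak under the WT label (chr4:132212025-132212045, minus strand): agtgtcagGGACAaaagccgc
Ythdf2 3′ UTR, peak under the WT label (chr4:132186860-132186880, minus strand): tcctaagaGGACAcgatgacc
Ythdf2 longest coding exon, peak under the cKO label (chr4:132204405-132204425, minus strand): tctgctgtGGACTacaacaca
Lyz2 coding sequence, peak under the cKO label (chr10:117282209-117282229, minus strand): tgactctgGGACTcctcctgc
Wdfy1 3′ UTR, peak under the cKO label (chr1:79703761-79703781, minus strand): agtgctttGGACAagagagtg
A match that holds GGAC was taken before a nearer one without it, so the core GGAC that the 5 sites share follows from the choice. Further peaks of one label in these genes had matches without it, AAACT in the Ythdf2 3′ UTR, GAACT in the Lyz2 3′ UTR and TAACA in the Lyz2 coding sequence. Each sequence comes from the reference and not from the libraries, and a match does not show that the adenosine was methylated. The Lyz2 site lay in the highest of 4 peaks that were found over Lyz2 in all 3 libraries labelled cKO IR (fold 5.54, 6.88 and 7.27) and in none labelled WT IR. The Wdfy1 site lay in a peak found in the same 3 libraries (fold 4.53, 4.55 and 4.35) and in none labelled WT IR. Neither of these peaks was found in any unirradiated IP library, where the WT means were 17312 CPM (Lyz2) and 13.9 CPM (Wdfy1). Another of the 4 Lyz2 peaks was found in 1 unirradiated WT library (fold 2.08).

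**Figure D2:**
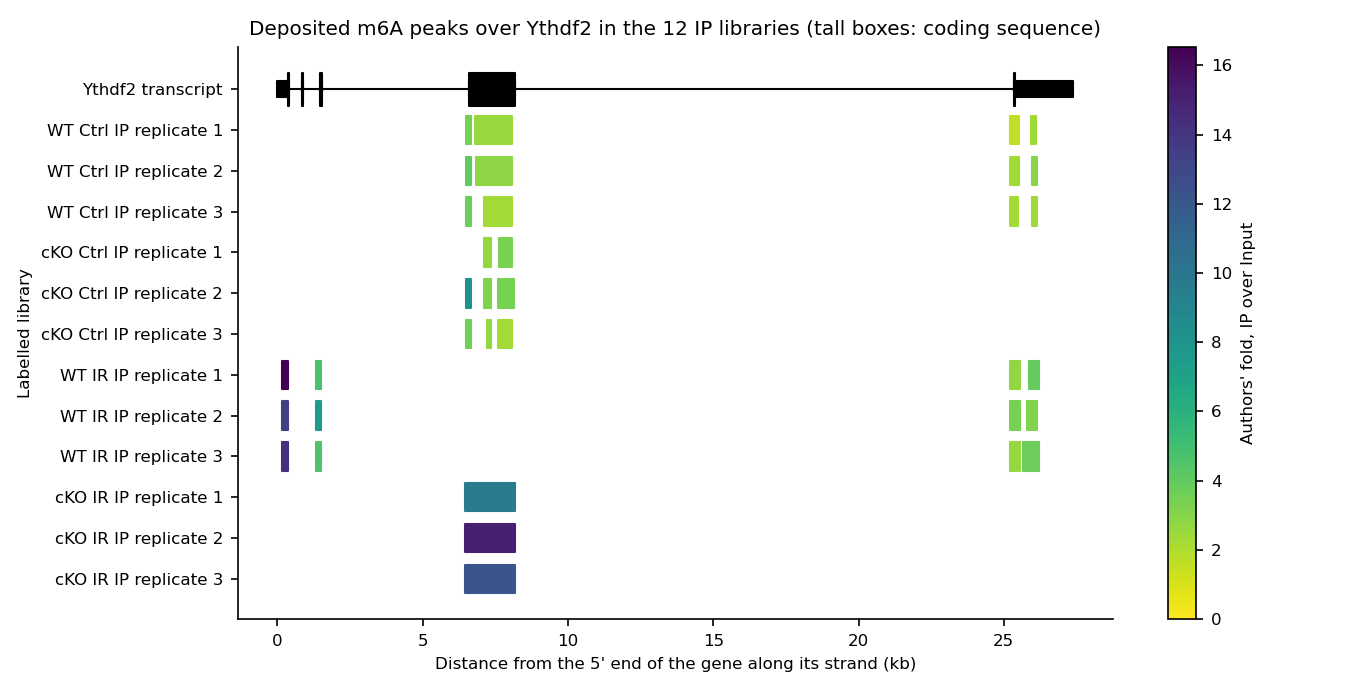
Deposited peaks over Ythdf2 in the 12 IP libraries, by distance from the 5′ end of the gene in kb, coloured by the authors' fold enrichment, with the exons drawn above. The libraries labelled cKO IR have 1 peak each over the longest coding exon, and the libraries labelled WT IR have 4 peaks each outside it.

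Across all 15276 genes, 6947 (45.5%) differed between the labelled groups at an adjusted p under 0.05 in edgeR's quasi-likelihood test. Of these, 3441 (22.5% of the genes tested) were higher under the cKO label and 3506 (23%) were lower. Most differences were small. The median size of a called difference was 0.27 on the log2 scale, and 218 genes were at least 2-fold higher and 194 at least 2-fold lower. The median over all genes was 0.01. TMM scaling sets most differences near 0, so this median cannot show whether the groups shared a common shift.

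The same label contrast in unirradiated IP libraries, which shares no library with the irradiated one, called 5350 of 16038 genes (33.4%). Across the 15276 genes the log2 differences of the irradiated and the unirradiated IP were negatively related (Pearson r = −0.47, Spearman rho = −0.45), and r was −0.46 without Lyz2 and −0.72 over the 9826 genes with a mean of at least 5 CPM. Genes are not independent replicates, and no p is given. Of the 3668 genes called in both contrasts, 3250 (88.6%) had opposite signs, and so had 354 of the 412 genes (85.9%) with an irradiated difference of at least 2-fold. The label difference itself differed between irradiated and unirradiated IP libraries in 7618 of 16038 genes (47.5%), tested as an interaction in one edgeR fit of the 12 IP libraries. The reversal seen at Lyz2 and Wdfy1 was thus found in most genes that were called in both IP contrasts.

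The irradiated Input libraries, which share no library with the irradiated IP either, called 7422 of 16502 genes (45%) by the same labels. Here the 2 contrasts were weakly related across genes (r = 0.05 and rho = 0.13, and above 5 CPM r = 0.11 and rho = 0.23). Of the 4213 genes called in both, 1451 (34.4%) had opposite signs and the others the same sign, and 203 of the 412 genes with IP differences of at least 2-fold (49.3%) had opposite signs. The difference between the IP and the Input contrast was called in 6138 of 16502 genes (37.2%), in one edgeR fit of the 12 irradiated libraries.

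**Figure D3:**
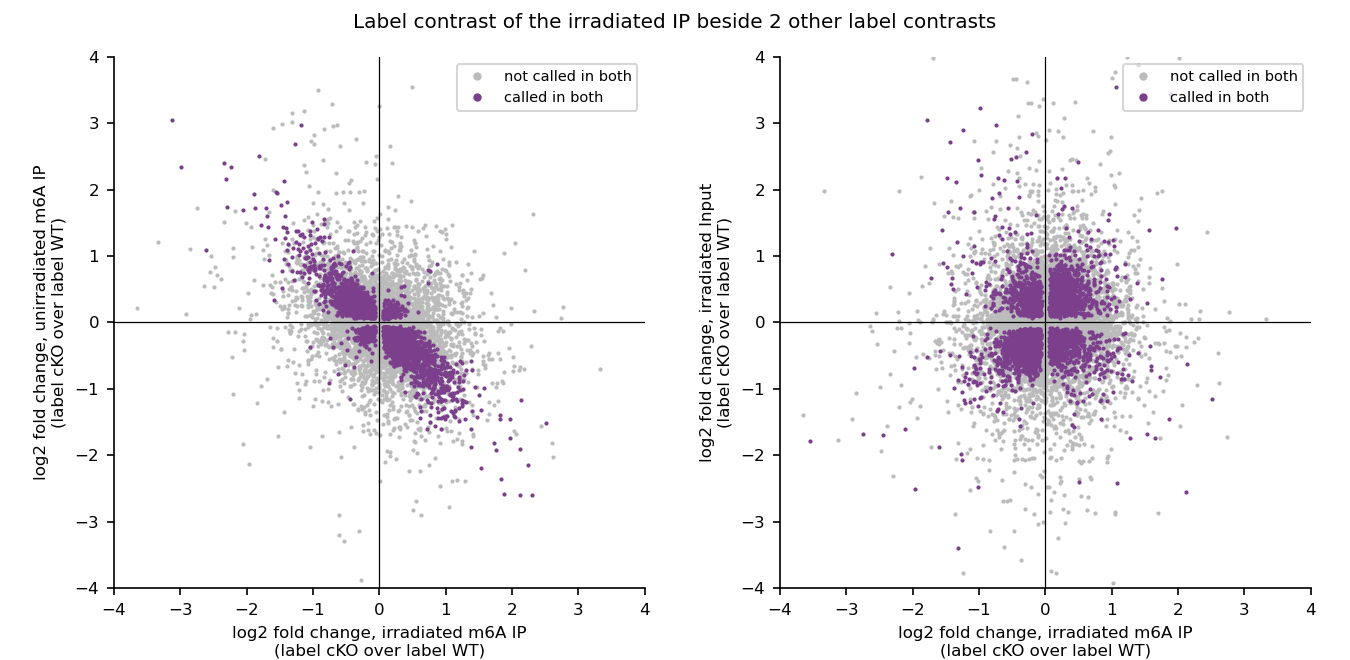
Log2 difference (cKO label minus WT label) of each gene in the irradiated IP against that in the unirradiated IP and in the irradiated Input, with axes cut at 4 on either side and genes called in both contrasts in purple. Purple genes lie mostly in the opposite-sign corners in the first panel (88.6%) and less so in the second (34.4%).

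Among genes with at least 5 CPM in the higher group, those that stood highest under the cKO label after Lyz2 and Wdfy1 included transcription factors, receptors and secreted proteins. Hic1, which encodes a transcriptional repressor, stood at 6.58, 7.90 and 6.52 CPM in the libraries labelled WT IR and at 29.5, 30.5 and 28.7 CPM in those labelled cKO IR (log2 2.11, SE 0.07). Adra2a, an alpha-2 adrenergic receptor, stood at 39.7, 39.3 and 38.6 CPM against 102, 102 and 97.4 CPM (1.39). Aldh1a2, the enzyme that makes retinoic acid, stood at 26.7, 25.4 and 28.2 CPM against 60.1, 60.1 and 60.6 CPM (1.20). In each the groups were far apart beside the spread within them. The other members of this set were Mucl1 (1.97), Zfp523 (1.73), Klrk1 (1.28), which encodes the activating receptor NKG2D, Clu (1.28), the chaperone clusterin, the anchoring protein gene Akap5 (1.25) and Apol7c (1.21). Lyz1, a close paralog of Lyz2 whose reads may be shared with it, was at 5.97, 7.18 and 6.97 CPM against 16.5, 20.0 and 20.2 CPM (1.53), and its value is uncertain for that reason.

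Among the genes that stood lowest under the cKO label, Ch25h, which makes 25-hydroxycholesterol, stood at 27.9, 27.5 and 29.1 CPM in the libraries labelled WT IR and at 9.78, 9.40 and 9.22 CPM in those labelled cKO IR (log2 −1.54). Fabp4, a fatty acid binding protein, stood at 29.6, 29.3 and 30.2 CPM against 9.97, 10.8 and 11.7 CPM (−1.43). Siglec1, the sialic acid receptor of macrophages also called CD169, stood at 12.02, 12.2 and 11.1 CPM against 5.01, 4.61 and 3.53 CPM (−1.39). The groups did not overlap in any of them, as the choice of these genes required. Scml4 (−1.88), Fam181b (−1.81), the adenylate cyclase gene Adcy3 (−1.78), Emp1 (−1.44), the cytokine gene Il18 (−1.40), Ccbe1 (−1.40), Prickle2 (−1.38), Kazald1 (−1.38) and the antiviral synthetase gene Oas3 (−1.33) completed the set.

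Lyz2, Wdfy1 and these 22 genes were compared with the other contrasts. In the unirradiated IP, 23 of the 24 had the opposite sign and were called there, for example Hic1 at −2.59, Aldh1a2 at −1.49, Ch25h at 1.96 and Fabp4 at 1.60. The exception was Oas3, at −0.13 (adjusted p = 0.38). The interaction was called in all 24. Of the 24, 18 were called in the irradiated Input, 7 with the sign of the IP and 11 with the opposite one.

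**Figure D4:**
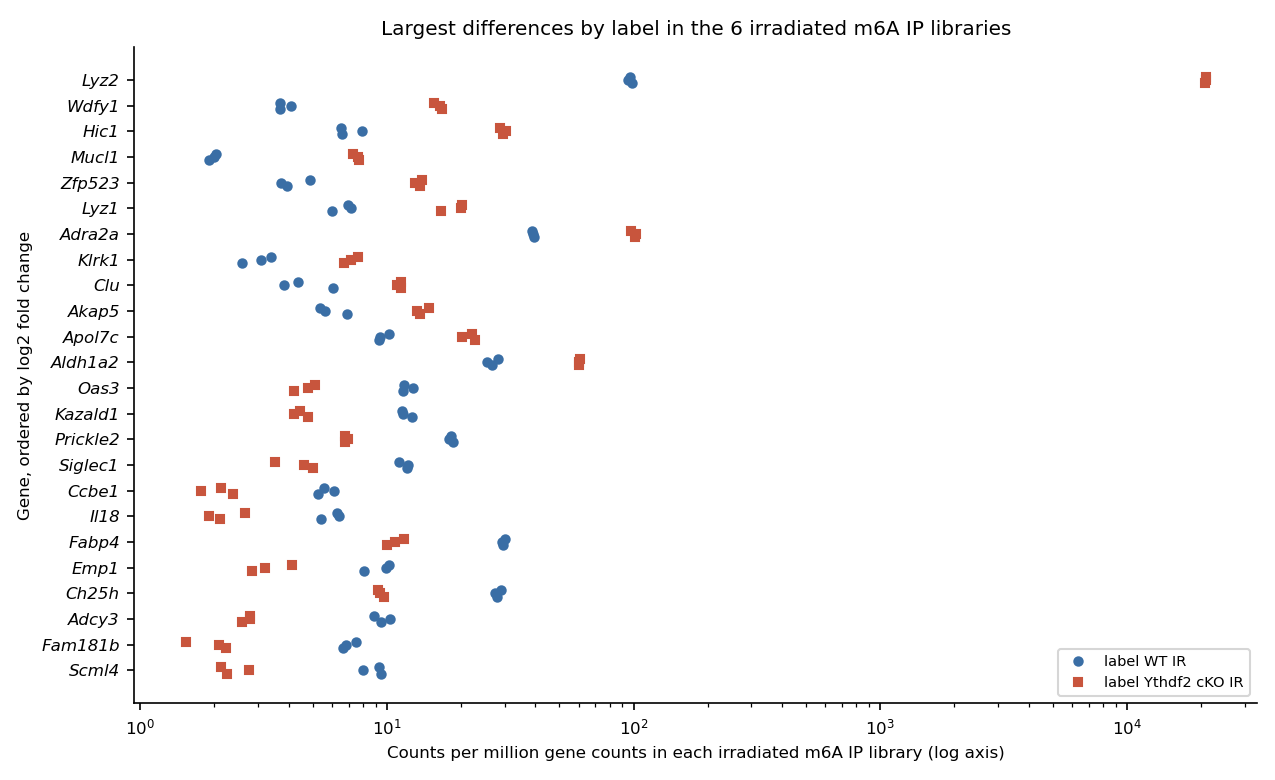
Levels (CPM, log axis) of the 24 genes with the largest differences in each of the 6 irradiated IP libraries, with the 12 higher and the 12 lower under the cKO label. Dots are libraries, and the 3 libraries of one label do not overlap those of the other in any of the 24, as the choice of these genes required.

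Antigen presentation and chemokine genes were mostly higher under the cKO label. Counts in this and the following lists stand beside shares over all genes of 22.5% higher and 23% lower. In either direction, 33.4% were called in the unirradiated IP and 45% in the irradiated Input. The interaction was called in 47.5% and the IP minus Input difference in 37.2%. Of 10 MHC class II genes, which present peptides to CD4+ T cells, 8 were higher and none lower (median log2 0.47, beside 0.01 over all genes). H2-Ab1, a class II beta chain, stood at 418, 418 and 410 CPM in the libraries labelled WT IR and at 643, 637 and 628 CPM in those labelled cKO IR (0.65). Of 13 genes of MHC class I presentation, 10 were higher and 1 lower (median 0.16), led by H2-Q4 (0.74). Of the 6 CXC chemokine genes tested, from a list of 11, 4 were higher and none lower (median 0.70). Cxcl3, a neutrophil attractant, stood at 124, 128 and 134 CPM against 267, 258 and 252 CPM (1.04). The CC chemokines had a mixed pattern, with 5 of 11 higher and 3 lower (median 0.02). Ccl17, a ligand of CCR4 made by dendritic cells, was higher at 966, 990 and 972 CPM against 1966, 2006 and 1972 CPM (1.05), and Ccl7, a monocyte attractant, was lower at 10.9, 10.5 and 11.1 CPM against 4.99, 5.66 and 5.38 CPM (−0.99). Of 8 chemokine receptor genes tested, 5 were higher and 1 lower (median 0.24), with Ccr7, the lymph node homing receptor, at 214, 210 and 201 CPM against 425, 428 and 428 CPM (1.07).

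In the unirradiated IP the MHC lists lay on the other side of 0 by label. There, 9 of the 10 MHC class II genes and 12 of the 13 class I genes were lower under the cKO label, and the medians were −0.52 and −0.22. The interaction was called in 9 of 10 and 12 of 13. The median of the CXC chemokines was −0.74 there, that of the chemokine receptors −0.02 and that of the CC chemokines 0.01. Of the class II genes, 7 were higher and none lower in the irradiated Input (median 0.41), so for this list the irradiated IP and Input had the same direction by label. Fewer cells of a type and less RNA per cell cannot be told apart in these bulk libraries.

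The type I interferon response genes, which encode antiviral effectors and are induced through the receptor IFNAR, went the other way. Of 40, 22 were lower and 4 higher under the cKO label in the irradiated IP (median −0.15). In the irradiated Input 39 of the 40 were higher and none lower (median 1.27), and all 22 that were lower in the IP were among the 39. Isg15, a ubiquitin-like modifier, differed by −0.21 in the IP and 2.84 in the Input, Irf7, the main transcription factor of the response, by −0.97 and 2.22, and Rtp4 by −0.74 and 2.98. The difference between the IP and the Input contrast was called in 37 of the 40, in 36 of them with the IP lower. In the unirradiated IP this list had the same sign by label, with 20 lower and 2 higher (median −0.21), and the interaction was called in 18 of the 40, near the 47.5% of all genes. The interferon-inducible GTPases, which attack vacuoles that hold pathogens, were instead higher in the irradiated IP in 7 of 14 and lower in 1 (median 0.32). Gbp2 stood at 54.2, 54.6 and 57.9 CPM against 104, 109 and 107 CPM (0.97). Input libraries had 11 of the 14 higher (median 0.82), and in the unirradiated IP 8 were lower and none higher.

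Genes of the cell cycle were lower under the cKO label. Of 24 proliferation genes 22 were lower, with a median of −0.39, and 1 was higher. Mki67, the proliferation antigen Ki-67, stood at 1444, 1446 and 1455 CPM in the libraries labelled WT IR and at 888, 878 and 865 CPM in those labelled cKO IR (−0.69). Ccnb1, the mitotic cyclin B1, differed by −0.77. By Input, 14 of the 24 were higher and 2 lower (median 0.24), 12 of those 14 being genes that were lower in the IP. In the unirradiated IP 17 were higher and 1 lower (median 0.13), and the interaction was called in 22. By its median the list therefore had one sign in the irradiated IP and the other in both sets compared with it. Mki67 itself was lower in the irradiated Input too (−0.35) and higher in the unirradiated IP (0.40).

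Transcripts of the mitochondrial genome had the largest median of all lists fixed for this comparison that had at least 10 members tested. Of 13, 12 were lower and none higher (median −0.97), and mt-Co1, a subunit of cytochrome c oxidase, stood at 920, 902 and 1070 CPM against 382, 390 and 368 CPM (−1.31). In the irradiated Input 10 were lower and none higher (median −0.87). The difference between IP and Input was called in 4 of the 13, near the 37.2% of all genes. In the unirradiated IP 10 were higher (median 0.80). The mitochondrial share of the libraries, given above, moved with this list.

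**Figure D5:**
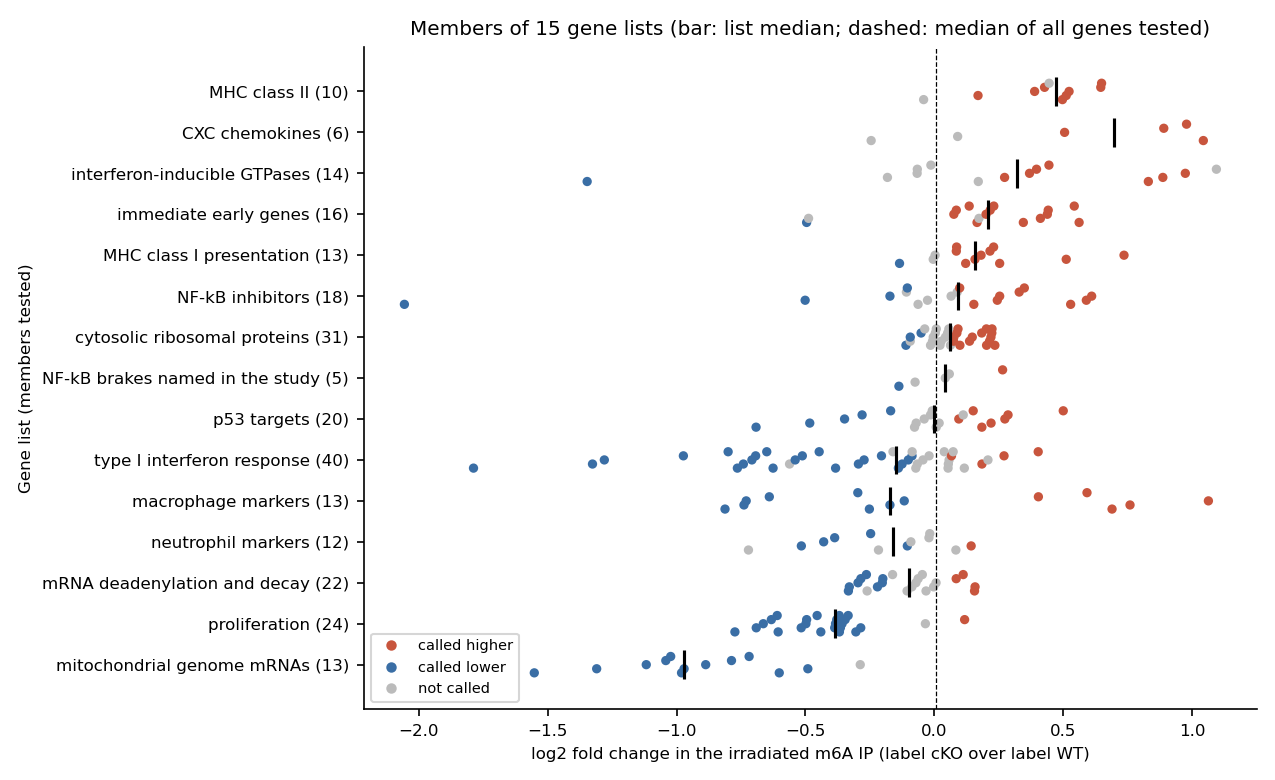
Log2 difference (cKO label minus WT label) in the irradiated IP of each tested member of 15 gene lists, with a bar at the median of the list and a dashed line at the median of all genes. MHC class II genes lie mostly above 0, and proliferation genes and mitochondrial transcripts mostly below it.

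Of 16 immediate early genes, which respond to signalling within minutes, 13 were higher and 1 lower (median 0.21), with Jund (0.56) and Egr2 (0.54) higher and Fos (−0.50) lower. Of the 16, 1 was higher and 10 were lower in the unirradiated IP (median −0.23), and the interaction was called in 12. Other lists were more mixed. Of 31 cytosolic ribosomal protein genes 15 were higher and 3 lower (median 0.06), whereas all 31 were higher in the irradiated Input (median 0.51). Of 19 suppressive effectors tested 8 were higher and 9 lower (median −0.11). Vegfa, an angiogenic factor, stood at 39.2, 43.4 and 42.3 CPM against 76.3, 78.4 and 76.2 CPM (0.92), and Mrc1, the mannose receptor of macrophages, at 891, 875 and 923 CPM against 526, 521 and 529 CPM (−0.74). The inflammatory cytokines had 6 of 14 higher and 2 lower (median 0.09), p53 targets 7 of 20 and 5 (0.00), glycolysis and hypoxia genes 6 of 20 and 9 (−0.03), genes of cholesterol synthesis and uptake 4 of 16 and 6 (−0.06), genes of mRNA deadenylation and decay 4 of 22 and 8 (−0.10), and long noncoding RNAs 2 of 8 and 1 (0.12). Of 12 m6A writers and erasers 3 were higher and 3 lower (median 0.05), and of 10 m6A readers 5 and 4 (median 0.08). The shares over all genes were 22.5 and 23%, near those of the writers and erasers.

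Genes of the NF-kB pathway, a group of transcription factors that drive inflammatory genes and induce their own inhibitors, were read with 4 inhibitors of the pathway that the study names as targets of YTHDF2. Those 4 were chosen by the study on libraries of this series, so their direction is not independent evidence. In the irradiated IP 1 of the 4 was higher and 1 lower under the cKO label, near the 22.5 and 23% of all genes. Tnfaip8l2, which dampens immune receptor signalling, stood at 228, 231 and 222 CPM under the WT label and at 257, 271 and 271 CPM under the cKO label (log2 0.26, SE 0.03, adjusted p = 1.7e-10). Socs3, an inhibitor of cytokine receptor signalling, stood at 88.9, 89.9 and 87.9 CPM against 80.0, 78.5 and 78.5 CPM (−0.14, SE 0.03, adjusted p = 0.00069). For these genes, and for Smpdl3b, the groups did not overlap, as in 52.6% of the 15276 genes. For Smpdl3b, a lipid-modulating phosphodiesterase, the values were 78.6, 73.4 and 73.0 CPM against 70.3, 69.2 and 69.3 CPM (−0.07, adjusted p = 0.093). For Metrnl, a secreted cytokine, the values were 184, 179 and 174 CPM against 181, 185 and 180 CPM (0.06, adjusted p = 0.089). Smpdl3b and Metrnl did not pass the test, although Smpdl3b did without WT IR replicate 3 (−0.10) and in the fit with the unirradiated libraries (−0.11). In the irradiated Input all 4 were higher, by 0.39 to 0.70, and the difference between IP and Input was called in all 4, from −0.33 (Metrnl) to −0.77 (Smpdl3b). Of a wider list of 18 NF-kB inhibitors 9 were higher and 4 lower in the irradiated IP (median 0.09). Nfkbie, which encodes an inhibitor that holds NF-kB in the cytoplasm, was higher by 0.61. Of 12 NF-kB subunits and kinases 4 were higher and 1 lower (median 0.02).

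The peaks over the 4 inhibitors were mostly the same in both groups. Of 5 consensus peaks (found in all 3 libraries of a group) that both groups shared over these genes, the authors' fold was lower in every library of the cKO label in 1, overlapping in 4 and higher in none. Over all 6871 shared peaks with a fold in every library, 8.78% were higher and 16% lower in this way. The lower one lay over the 3′ UTR of Tnfaip8l2, with a fold of 3.85, 5.02 and 3.34 against 3.18, 2.52 and 2.74. Among the irradiated IP libraries, a peak in the Socs3 3′ UTR was found under the WT label alone (fold 1.99, 1.69 and 2.13). So was a peak in the coding sequence of Smpdl3b (3.48, 3.76 and 3.69). The Socs3 peak was also found in 1 unirradiated WT library (fold 1.33) and in no unirradiated cKO library. The Smpdl3b peak was found in all 3 unirradiated libraries of each label. Motif matches at the summits of peaks over these genes are shown to place the sites, with capitals on the DRACH match as above.
Tnfaip8l2 3′ UTR, shared peak (chr3:95139664-95139684, minus strand): gaggaaggGGACActaaaggc
Socs3 3′ UTR, peak under the WT label (chr11:117966975-117966995, minus strand): gcaaggggTGACCtgaagaga
Metrnl coding sequence, shared peak (chr11:121707887-121707907, plus strand): cctttcagGGACTcctctgga
Smpdl3b 3′ UTR, shared peak (chr4:132733253-132733273, minus strand): gtgggatgGGACAcctggatt
The 3 shared sites hold GGAC, and the Socs3 site holds TGAC.

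The authors called 14870, 17442 and 15452 peaks in the libraries labelled WT IR and 14041, 13736 and 13470 in those labelled cKO IR. The means were 15921 ± 1349 and 13749 ± 286 (SD, n = 3), a difference of −2172 that every library shared in sign (exact permutation test, two-sided, p = 0.1, the smallest p that 3 against 3 allows). Without WT IR replicate 2 the difference was −1412. Consensus peaks numbered 9927 under the WT label and 9056 under the cKO label. Of these, 6885 (69.4%) and 6882 (76.0%) were shared with the consensus of the other group, and 961 (9.68%) and 451 (4.98%) had no peak in any library of the other group. The rest overlapped a peak of 1 or 2 libraries of the other group.

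The host genes of peaks found in a single group mostly differed in the direction of the peak. Of the 948 peaks found only under the WT label with a tested host gene, the host was lower under the cKO label in 509 (53.7%) and higher in 140 (14.8%). Of the 395 found only under the cKO label, the host was higher in 257 (65.1%) and lower in 38 (9.62%). Over all consensus peaks of the WT label with a tested host, 31.6% of hosts were lower and 37.8% higher. For those of the cKO label, 47.4% of hosts were higher and 23.6% lower. Peaks were counted here, so a gene with several peaks counts more than once. In the irradiated Input the medians went the other way, 0.29 for hosts of peaks found only under the WT label and −0.36 for hosts of peaks found only under the cKO label. The authors' fold is relative to a control library, and the Input that served each IP library was not given in the sources used here. Of peaks found only under the WT label, 22.0% were near a stop codon (200 bases or less), 5.52% were in the 5′ UTR and 1.15% were between genes, and of peaks found only under the cKO label 10.9, 2.0 and 11.5%. Of the first, 50.4% overlapped a consensus peak of the unirradiated WT group and 44.1% one of the unirradiated cKO group, and of the second 29.7 and 17.1%. Over all consensus peaks of the WT label, 18.5% were near a stop codon, 3.95% in the 5′ UTR and 3.03% between genes. For the cKO label these shares were 16.95, 3.32 and 4.21%. The overlaps over all consensus peaks were 80.8 and 77.2% (WT label) and 79.1 and 74.7% (cKO label). Introns held 29.0% (WT label) and 18.85% (cKO label) of single-group peaks, beside 19.4 and 17.2% of all.

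Single-group peaks were also taken where the host gene differed by less than 0.5 (log2) in the irradiated IP and had at least 20 CPM. The Input level was not part of this choice, and Ythdf2, for example, differed by 1.09 in the irradiated Input. The 6 such peaks with the highest mean fold in each group were named. Under the WT label these lay in the coding sequence of Zbp1, a sensor of Z-form nucleic acids (chr2:173215743-173215993, fold 16.4, 18.2 and 16.5), in the 5′ UTR of Ythdf2, in introns of Mitd1, Eepd1 and the chemokine gene Ccl4, and in the coding sequence of Ccdc34 (11.7, 11.6 and 11.4). Under the cKO label they lay in the longest coding exon of Ythdf2, in the coding sequences of Golim4, a Golgi membrane protein (13.7, 10.9 and 6.08), and Ccdc186 (8.04, 9.29 and 9.68), and in introns of Spen, N4bp2l2 and the lactoferrin gene Ltf. Ythdf2 thus appeared on both sides with different peaks. The Zbp1 peak was also found in all 3 unirradiated libraries of the WT group (fold 11.7 to 12.3) and in none of the cKO group. The Ccdc34 peak was found in all 6 unirradiated libraries. The Golim4 peak was found in 1 of them, and the Spen and Ltf peaks in none. The motif matches at the summits of the 3 exonic peaks outside Ythdf2 that lay within one exon were as follows.
Ccdc34, peak under the WT label (chr2:110021892-110021912, plus strand): gagtcgcaAGACAaacaagag
Golim4, peak under the cKO label (chr3:75898102-75898122, minus strand): cagaatatAAACAactgaaag
Ccdc186, peak under the cKO label (chr19:56793427-56793447, minus strand): gtggctgtGGACAacttccca
Of these, Ccdc186 holds GGAC, and the other two hold other DRACH forms.

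Motif content at consensus peaks was close in both groups. In windows that reached 50 bases to either side of summits in 3′ UTRs, GGACT on the gene's strand was present in 14.2% of 1621 peaks under the WT label and 15.8% of 1574 under the cKO label, and GGAC, which GGACT contains, in 36.7 and 37.9%. In 43570 windows of the same length from 3′ UTRs of the same 4302 host genes outside the peaks, the shares were 8.31% for GGACT and 22.8% for GGAC. In coding sequence GGACT was present in 10.9 and 11.1% of peaks and in 10.1% of 33511 such windows. DRACH was present in 86.0% of the 3′ UTR windows outside peaks and in 89.6 and 90.5% of 3′ UTR peaks, so it separates windows of this length poorly. Among single-group peaks in 3′ UTRs, 9 of 141 (6.38%) under the WT label and 17 of 78 (21.8%) under the cKO label held GGACT. The shares with GGAC were closer, 28.4 and 33.3%, and those with DRACH had the other order, 90.8 and 82.05%. Only the strand of the gene was searched.

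Grouped by their consensus peaks, genes with a peak in both groups were higher under the cKO label in 45.1% of 3036 and lower in 21.5%, and genes with none were higher in 15.2% and lower in 22.4% of 10778. Genes with a consensus peak under the WT label alone were higher in 18.7% of 948 and lower in 39.3%, and those under the cKO label alone were higher in 50.8% of 514 and lower in 12.1%. Peaks and counts come from the same libraries, so these shares describe the libraries and test nothing.

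The cell type of the sort was checked with marker lists. Beside their counts stand shares over all genes of 22.5% higher and 23% lower. Of 10 pan-myeloid markers 4 were higher, among them Lyz2, Lyz1 and Cd14 (0.36), and 3 lower, led by Csf1r (−0.25), with a median of 0.00. Itgam, which encodes CD11b itself, stood at 580, 572 and 590 CPM under the WT label and at 527, 544 and 568 CPM under the cKO label, and did not pass the test (−0.05). Of 10 monocyte markers 5 were higher and 2 lower (median 0.07), of 13 macrophage markers 5 and 8 (−0.17), of 12 neutrophil markers 1 and 5 (−0.16), of 8 dendritic cell markers tested 4 and 1 (0.27), and of 7 granulocyte progenitor markers 1 and none. Within the macrophage list C1qa, a complement subunit, stood at 36.0, 34.7 and 35.0 CPM against 70.7, 74.3 and 70.8 CPM (1.06), and Adgre1, which encodes F4/80, at 52.1, 50.1 and 51.4 CPM against 27.5, 30.2 and 28.0 CPM (−0.81), so the list had no common direction. Of 11 T and NK cell markers only 2 were tested and 5 were at 0 in all 6 libraries, with a summed level of 0.324 to 0.552 CPM under the WT label and 0.401 to 0.729 CPM under the cKO label. None of the 6 erythroid markers reached the count minimum in these libraries, whereas Hbb-bs, a beta globin gene with close copies, had 828, 789 and 1070 counts in the WT IR Input and 0 in each cKO IR Input library. Its part in the Input contrast was not tested. None of 2 tested B cell markers and none of 3 tested mast cell and eosinophil markers was called. Of 7 endothelial and platelet markers 2 were higher and 2 lower, of 3 fibroblast markers tested 1 was lower, and of 2 tumour epithelial markers tested 1 was lower, with a summed level of 114 to 118 CPM under the WT label and 87.7 to 87.8 CPM under the cKO label. The part of these markers in the list results was not tested.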

How the data were processed

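RNA of CD11b+ cells from 24 samples (8 groups of 3) was measured by MeRIP-seq. After trimming (Trimmomatic 0.39) and alignment to mm10 (HISAT, GENCODE vM19), the authors deposited raw HTSeq counts per gene and library, neither normalized nor pooled. Peaks were called by them with MACS2, per library and strand. The deposited peak lists give a fold enrichment (a ratio over a control library) and −log10 p- and q-values. Scores were not used.

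Groups came from the labels. Counts of the 6 libraries were tested with edgeR 4.0.16 in R 4.3.3 (quasi-likelihood, TMM, at least 10 counts in at least 3 libraries, Benjamini-Hochberg adjusted p under 0.05), without covariates. The same fit was also run on simulated data, and its values there are not given here. CPM used unscaled totals. The interaction and the IP minus Input difference each used 12 libraries. DESeq2 1.42.0, other scaling, other filters, a replicate block, other peak thresholds and leaving out each library were the alternatives. Of 54446 identifiers 54409 matched GENCODE vM21, which gave symbols, positions and exons. HTSeq summary lines that name no gene were left out, and reads outside genes made up 3.37 to 3.60% of the irradiated IP reads. The methods state strand-specific alignment, and close paralogs such as Lyz1 and Lyz2 may share reads. Consensus peaks lay in 3 of 3 libraries on one strand with at least 1 base of overlap. Genes were named by rule: Lyz2, Wdfy1 and Ythdf2, the 12 genes highest and 12 lowest by fold among those called, not overlapping and at 5 CPM or more, inhibitors named in the study (1 item is not reported here), and up to 3 members of each of the other lists. Itgam was added as the marker of the sort. Motif sites lay within 50 bases of a summit, with GGAC forms taken first. Members and lists were chosen with earlier results of these data known.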

Additional observations from a re-analysis of the deposited data

Results flagged for a closer look

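The label difference (cKO label minus WT label) differed between the irradiated and the unirradiated IP libraries in 7618 genes by the interaction term of edgeR at an adjusted p under 0.05. Values below are that difference of differences on the log2 scale for the genes named above. The 3 genes of the label check stood at 15.25 (Lyz2), 3.99 (Wdfy1) and 0.43 (Ythdf2). Among genes higher under the cKO label in the irradiated IP, the values were 4.67 (Hic1), 3.67 (Mucl1), 3.50 (Zfp523), 2.80 (Lyz1), 2.69 (Adra2a), 2.65 (Aldh1a2), 2.43 (Clu), 2.39 (Akap5), 2.03 (Klrk1) and 2.02 (Apol7c). Among genes lower there, the values were −4.35 (Fam181b), −3.64 (Scml4), −3.54 (Ch25h), −3.28 (Adcy3), −3.26 (Ccbe1), −3.07 (Fabp4), −2.87 (Il18), −2.79 (Prickle2), −2.60 (Kazald1), −2.52 (Siglec1), −2.43 (Emp1) and −1.23 (Oas3). The groups of 3 libraries were too small to look for a single library far from its group.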

How the results depend on the processing

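The count of 6947 called genes lay between 6211 and 6959 under all alternatives, with 6846 in DESeq2. The replicate block gave 6821 calls, and 7523 for the interaction (7618 without it) and 5953 for the IP minus Input difference (6138 without it). Same-numbered irradiated IP libraries of the 2 labels did not deviate together (r = 0.05, −0.03 and 0.01), so the numbers showed no pairing across labels. Whether an IP library pairs with the same-numbered Input of its group was not tested. The main fit of the IP minus Input difference took them as unpaired. Fitted with the unirradiated libraries, 40.8% of calls were higher under the cKO label, against 49.5%. Counts of peaks moved by more than 1.5 times. At a fold of at least 4, consensus peaks numbered 2920 (WT label) and 2508 (cKO label) and single-group peaks 361 and 197. With 2 of 3 libraries enough, single-group peaks numbered 2638 and 1247, and leaving out 1 library gave 1211 to 1873 (WT label) and 629 to 777 (cKO label), where fewer libraries have to agree. In windows of 51 bases GGACT was present in 7.71 and 7.94% of 3′ UTR peaks, since the windows were shorter. Ddx3y, which did not pass the test, turned to −0.029 in the fit with unirradiated libraries, and lay between −0.023 (without WT IR replicate 1) and 0.025 with 1 library left out. Of 115 named genes, 10 changed their call under some alternative, among them Smpdl3b, which passed at −0.11 and −0.10, and Cxcl1. In those genes the cause was not tested. Which Input served as a peak's control limits any reading of fold.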

Other observations

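Of 4 genes listed for differences between C57BL/6 substrains, 3 were tested, and 1, Wdfy1, was called in the irradiated IP. Of 5 sex-linked transcripts 4 were tested and none was called in this comparison, and Xist, the transcript of the inactive X chromosome, had 2 counts in all 24 libraries together. The erythroid gene Hbb-bs had 0 counts in the 12 IP libraries and 11.6 to 15.3 CPM in the 3 WT IR Input libraries. Malat1, a nuclear noncoding RNA, stood at 926, 929 and 943 CPM in the libraries labelled WT IR and at 646, 636 and 658 CPM in those labelled cKO IR (log2 −0.50), at 0.85 in the unirradiated IP and at −1.02 in the irradiated Input.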
